A study of Mus musculus with 30 samples.

Results

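The genes described here are 40 collagen and extracellular matrix genes of the mouse, out of 55487 genes in the count table. The list was drawn up by name and not by a cut on measured values, but with earlier results of these data known. They comprise 6 fibrillar collagens, 9 basement membrane genes, 3 collagen VI chains, 3 fibril-associated collagens, 5 small leucine-rich proteoglycans, 8 elastic fibre genes and 6 adhesive or matricellular genes. All 40 were found by symbol, and all 40 passed the filter on low counts that kept 15458 genes for testing. The extracellular matrix is the protein scaffold outside cells. In the gut wall it is made largely by fibroblasts and smooth muscle cells. Fibrillar collagens bear tension, proteoglycans and fibril-associated collagens set the spacing and width of the fibrils, the basement membrane underlies epithelium, vessels and muscle cells, and elastic fibres let the wall recoil.

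RNA from the colon of 30 mice was counted with 3′ tag libraries, which read the end of each transcript, in 6 genotypes of 5 mice each. The control group is labelled WT. The group XBP1IEC-KO, called Xbp1 knockout here, lacks XBP1, a transcription factor of the unfolded protein response, in intestinal epithelial cells (IEC). The group Casp8IEC-KO, called Casp8 knockout, lacks caspase-8, a protease that starts apoptosis and restrains necroptosis, in the same cells. The double knockout, labelled XBP1IEC-KO;Casp8IEC-KO, carries both deletions, and so do both triple knockouts. The TNFR1 triple knockout (XBP1IEC-KO;Casp8IEC-KO;TNFR1IEC-KO) also lacks TNFR1, a receptor for tumour necrosis factor, in epithelial cells. The MLKL triple knockout (XBP1IEC-KO;Casp8IEC-KO;MLKLKO) also lacks MLKL, the protein that carries out necroptosis, and its label names no cell type for that deletion. The Cre driver, the ages and the sexes are not in the labels. Epithelial cells are not known as the main source of these transcripts, and the RNA came from the whole colon, so that fewer cells of a type and less RNA per cell cannot be told apart.

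Libraries held 3516792.6 to 5823059.7 reads, and 1 read is worth about 0.232 CPM (a gene's reads as a share of its library, scaled for composition), the unit of every level below. Casp8 itself read 51.5 to 58.7 CPM in WT and 24.7 to 34.8 CPM in the Casp8 knockout. The library labelled Xbp1 knockout replicate 2 read 21.1 CPM of Casp8 against 45.0 to 66.7 CPM in the other 4 of its group. The library labelled MLKL triple knockout replicate 5 read 10.7 CPM of Mlkl against 1.30 to 4.38 CPM in the other 4. Counts of members called are given without each of these libraries where they enter. Sex read from X- and Y-linked transcripts gave 1 female and 4 males in both WT and the double knockout, 3 and 2 in each single knockout, 4 and 1 in the TNFR1 triple knockout and 5 females in the MLKL triple knockout.

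The starts of 4 members are shown because these genes are followed through the comparisons below: the neighbouring pair Col4a5 and Col4a6, the proteoglycan Ogn and the fibrillar collagen Col5a3. Col4a6 and Col4a5, chains of basement membrane collagen IV, lie head to head on the X chromosome with 1308 bases between their starts. Sequences are from RefSeq promoter windows on GRCm38.p6, without the part inside an exon, 5′ to 3′ on the strand of the gene. Capitals mark a CCAAT box in Col4a5 and Col5a3. In Ogn they mark TTTATAAA, where TATAAA on each strand overlaps, and GGAATG (the site of TEAD factors). The Col4a6 stretch shown held none of the motifs searched, though the longer window counted in the next paragraph held GGAATG.
Col4a5 (chrX:141475169-141475384, plus strand): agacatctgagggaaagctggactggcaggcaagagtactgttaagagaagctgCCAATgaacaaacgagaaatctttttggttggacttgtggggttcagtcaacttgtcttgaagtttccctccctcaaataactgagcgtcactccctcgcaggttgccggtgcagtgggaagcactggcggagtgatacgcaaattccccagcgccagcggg
Col4a6 (chrX:141474077-141474326, minus strand): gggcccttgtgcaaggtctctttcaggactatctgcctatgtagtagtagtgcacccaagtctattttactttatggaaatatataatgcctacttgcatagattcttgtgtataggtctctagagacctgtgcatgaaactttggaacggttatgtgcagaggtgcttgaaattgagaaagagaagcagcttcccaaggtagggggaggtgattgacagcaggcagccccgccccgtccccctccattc
Ogn (chr13:49607765-49608014, plus strand): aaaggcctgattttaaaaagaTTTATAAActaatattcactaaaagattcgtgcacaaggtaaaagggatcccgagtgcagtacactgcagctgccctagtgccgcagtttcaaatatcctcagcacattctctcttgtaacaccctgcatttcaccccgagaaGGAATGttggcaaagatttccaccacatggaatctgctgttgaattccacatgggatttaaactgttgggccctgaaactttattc
Col5a3 (chr9:20815068-20815317, minus strand): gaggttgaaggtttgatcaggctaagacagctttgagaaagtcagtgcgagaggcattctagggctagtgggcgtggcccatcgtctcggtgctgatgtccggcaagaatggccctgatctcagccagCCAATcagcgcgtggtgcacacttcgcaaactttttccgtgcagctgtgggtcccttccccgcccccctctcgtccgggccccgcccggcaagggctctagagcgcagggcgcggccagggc

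The promoter table held 27 of the 40 members. Motifs were searched on both strands of the window from 250 bases before to 50 bases after each start. CCAAT was present in 10 of the 27 (37.0%) and in 41.1% of all 27025 genes in the table. TATAAA was present in 4 members (14.8%), against 15.7% of all genes. TGANTCA, the AP-1 site, was found in 3 members (11.1%) and in 8.97% of all genes, and GGAATG in 5 members (18.5%) and in 16.6% of all genes. The CArG box, the site of serum response factor in muscle genes, was found in 1 member, Lama2 (3.70%), and in 1.81% of all genes, and GTCTAGAC, the SMAD box, in no member and in 0.248% of all genes.

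In the double knockout the matrix genes as a group were lower than in WT. The summed level of the 40 members was 6909 ± 678 CPM in WT (SD, n = 5) and 4450 ± 534 CPM in the double knockout. Double-knockout replicate 1 stood apart from the other 4 libraries of its group: it differed from them by 32.6 to 52.4 times the counting variance, while they differed from each other by 7.41 to 14.8 times, and mitochondrial genes took 10.3% of its reads against 16% to 19.2%. Its summed level of the members, 4591 CPM, was the median of the group. WT libraries ranged from 5936 to 7514 CPM and double-knockout libraries from 3649 to 5044 CPM, without overlap. All 40 members had a negative log2 fold change, and 26 of the 40 (65%) fell below WT in edgeR's quasi-likelihood test at an adjusted p of 0.05, where 10.2% of all genes tested fell and 11.1% rose. The median log2 fold change of the members was -0.62, a fall of 34.9%, and that of all genes tested was 0.01. In 16 members every double-knockout library read below every WT library, which was so for 6.66% of all genes tested.

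**Figure D1:**
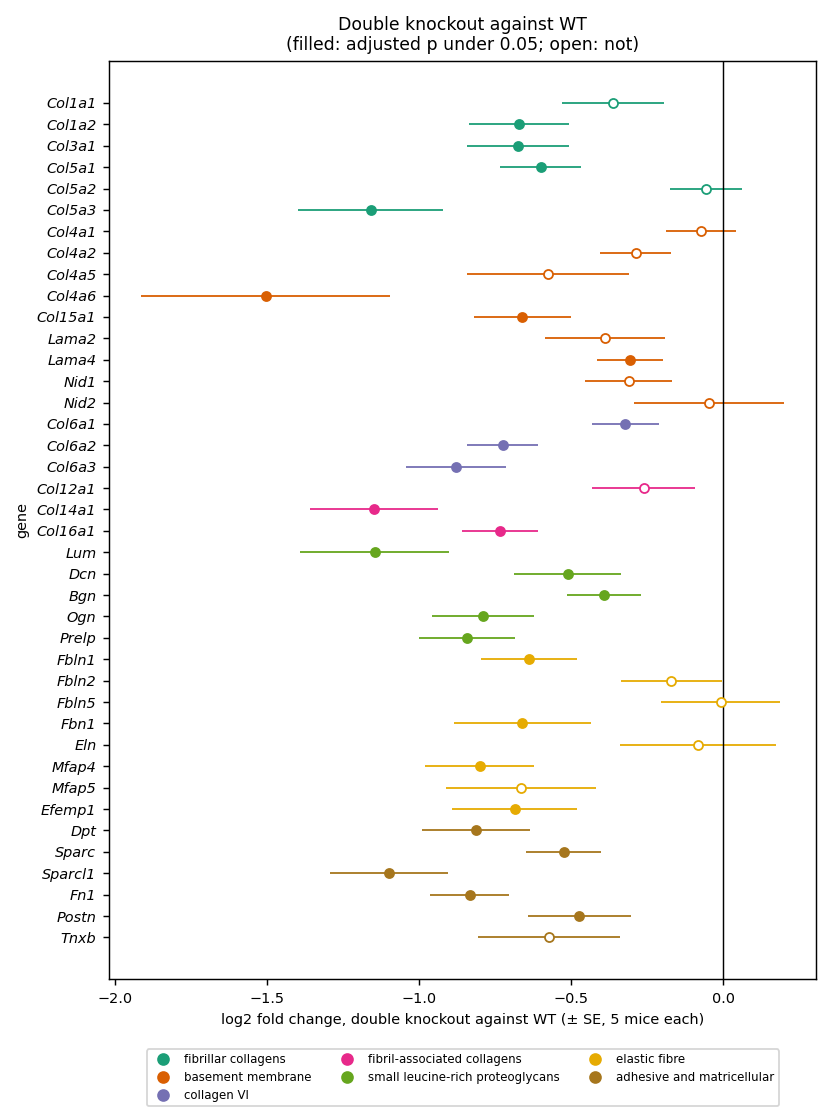
Log2 fold change of each of the 40 members in the double knockout against WT (horizontal axis, point ± SE from the edgeR fit), grouped by role. Filled points passed the test at an adjusted p of 0.05; all 40 points lie below 0, from -1.5 for Col4a6 to -0.01 for Fbln5.

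Of the fibrillar collagens, 4 of 6 fell. Col5a3, a minor chain of collagen V that joins the large fibrils, read 17.4, 24.9, 20.5, 24.5 and 16.6 CPM in WT and 8.17, 10.2, 16.5, 5.94 and 5.24 CPM in the double knockout, a log2 fold change of -1.16 ± 0.238 (SE; adjusted p = 0.000781, edgeR). Col5a1, the chain present in most collagen V, read 69.6, 81.1, 70.3, 89.5 and 59.8 CPM in WT. In the double knockout Col5a1 read 53.5, 40.4, 57.2, 36.4 and 56.0 CPM, again below every WT library, with a log2 fold change of -0.60 ± 0.133 (adjusted p = 0.0016, edgeR). Col1a2 and Col3a1, chains of the major collagens I and III, fell by 0.67 ± 0.165 and 0.67 ± 0.168 on the log2 scale (adjusted p = 0.00383 and 0.00431, edgeR), with libraries of the 2 groups overlapping. Double-knockout replicates 2 and 3 held the most Col3a1, at 579.7 and 585 CPM, and the other 3 lay between 317 and 343 CPM. Col1a1, the partner chain of Col1a2, gave -0.36 ± 0.167 (adjusted p = 0.119, edgeR), and Col5a2 gave -0.06 ± 0.118 (adjusted p = 0.774, edgeR). The fibrillar chains thus did not all pass the test, and the difference between chains was not tested.

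All 3 collagen VI chains fell. Collagen VI forms beaded microfilaments that link cells to the fibrils, and its chains are assembled in equal parts. Col6a2 read 106, 137, 113, 117 and 121 CPM in WT and 84.9, 61.1, 76.3, 72.2 and 64.0 CPM in the double knockout, a log2 fold change of -0.73 ± 0.116 (adjusted p = 6.59e-05, edgeR). Col6a3 read 143, 181, 145, 153 and 93.1 CPM in WT and 66.9, 68.0, 109.6, 81.9 and 62.6 CPM in the double knockout (-0.88 ± 0.163, adjusted p = 0.000288, edgeR). The groups did not overlap for Col6a2, while for Col6a3 WT replicate 5 lay below double-knockout replicate 3. Col6a1 changed least of the 3, by -0.32 ± 0.109 (adjusted p = 0.033, edgeR).

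Among the fibril-associated collagens 2 of 3 fell. These collagens lack long fibrils of their own and coat the surface of others. Col14a1 read 44.7, 56.2, 60, 42.9 and 51.5 CPM in WT and 13.2, 32.7, 27.7, 19 and 23 CPM in the double knockout, a log2 fold change of -1.15 ± 0.21 (adjusted p = 0.000251, edgeR). Col16a1 read 48.4, 55.0, 67.1, 59.2 and 61.4 CPM in WT and 33.5, 33.0, 40.4, 30.7 and 37.1 CPM in the double knockout (-0.73 ± 0.126, adjusted p = 0.000135, edgeR). For both genes every double-knockout library lay below every WT library. Col12a1 gave -0.26 ± 0.168 and did not pass.

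The 5 small leucine-rich proteoglycans, which bind collagen fibrils and control their diameter, all fell. Lum (lumican) read 59.0, 54.5, 71.7, 63.8 and 59.0 CPM in WT and 19.5, 43.2, 39.4, 18.3 and 19.1 CPM in the double knockout, a log2 fold change of -1.15 ± 0.246 (adjusted p = 0.00121, edgeR). The double-knockout libraries held Lum at 18.3 to 19.5 CPM in replicates 1, 4 and 5 and at 39.4 to 43.2 CPM in replicates 2 and 3. Prelp, which also binds basement membranes, read 66.7, 61.2, 53.3, 60.3 and 74.1 CPM in WT and 48.4, 36.1, 33.3, 33.1 and 24.1 CPM in the double knockout (-0.84 ± 0.158, adjusted p = 0.000317, edgeR). Ogn (osteoglycin) read 123, 100.3, 104, 100.4 and 81.2 CPM in WT and 50.7, 70.1, 69.3, 39.3 and 64.7 CPM in the double knockout (-0.79 ± 0.168, adjusted p = 0.00108, edgeR). All of these double-knockout values lay below the lowest WT value of the same gene. Dcn (decorin), with a WT coefficient of variation of 3.57%, the smallest among the members, fell by 0.51 ± 0.177 on the log2 scale (adjusted p = 0.0362, edgeR). Bgn (biglycan) changed by -0.39 ± 0.122 (adjusted p = 0.0204, edgeR).

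Of the adhesive and matricellular genes 5 of 6 fell. Fn1 (fibronectin), the glycoprotein on which other matrix fibres assemble, had the smallest p among the members. The gene (ENSMUSG00000026193) lies on the minus strand of chromosome 1 at 71585520 to 71653200 (GRCm38), and its 3′ end is what the tags read. It read 436, 493, 460.2, 495 and 383 CPM in WT and 273, 317, 254, 194 and 233 CPM in the double knockout, a log2 fold change of -0.83 ± 0.129 (adjusted p = 4.3e-05, edgeR). Sparcl1, a collagen-binding protein of the SPARC family, read 1155, 1075, 900.5, 1034 and 963 CPM in WT and 553, 471, 451, 342 and 575 CPM in the double knockout (-1.10 ± 0.195, adjusted p = 0.000176, edgeR). The highest double-knockout value lay well under the lowest WT value for both. Dpt (dermatopontin) changed by -0.81 ± 0.177, Sparc by -0.53 ± 0.124 and Postn (periostin) by -0.47 ± 0.169, with adjusted p of 0.00136, 0.00286 and 0.0428 (edgeR). Tnxb (tenascin X) gave -0.57 ± 0.233 and missed the threshold (adjusted p = 0.0763, edgeR).

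Of the elastic fibre genes 4 of 8 fell. Mfap4, a microfibril glycoprotein, read 16.5, 19.4, 17, 14 and 17.2 CPM in WT and 10.3, 7.42, 11.4, 7.42 and 11.4 CPM in the double knockout, a log2 fold change of -0.80 ± 0.178 (adjusted p = 0.00169, edgeR). Fbln1 (fibulin 1) read 55.7, 39.3, 57.5, 42.9 and 49.2 CPM in WT and 28.3, 38.6, 37.9, 27 and 25.5 CPM in the double knockout (-0.64 ± 0.157, adjusted p = 0.00401, edgeR). The groups did not overlap for either gene, though the highest Fbln1 value of the double knockout and the lowest of WT were close. Efemp1 (-0.69 ± 0.206) and Fbn1 (fibrillin 1, -0.66 ± 0.225) also fell, with adjusted p of 0.0167 and 0.0333 (edgeR). Eln, the elastin core itself, gave -0.08 ± 0.256, Fbln5, which tethers elastin to cells, -0.01 ± 0.197, and Fbln2 -0.17 ± 0.166, and none of these passed. Mfap5 gave -0.67 ± 0.245 (adjusted p = 0.0505, edgeR).

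Of the basement membrane genes 3 of 9 fell, with a median log2 fold change of -0.31, and whether this class differed from the others was not tested. Col4a1 and Col4a2, which form the common collagen IV network, gave -0.07 ± 0.115 and -0.29 ± 0.116 and did not pass. Their genes lie head to head with starts that overlap by 22 bases. Col4a1 read 177, 214, 189.7, 219.9 and 182 CPM in WT and 256, 154, 179.7, 171 and 170.4 CPM in the double knockout, so that the highest of these 10 libraries was double-knockout replicate 1. Col4a6, a chain of the collagen IV network found around smooth muscle, read 6.6, 9.48, 5.75, 5.59 and 8.32 CPM in WT and 1.31, 1.28, 4.18, 4.45 and 1.37 CPM in the double knockout, a log2 fold change of -1.5 ± 0.409 (adjusted p = 0.0086, edgeR). Every double-knockout value lay below WT, and 3 of the 5 were under 1.40 CPM. Col15a1, which anchors basement membrane to the fibrils beneath, read 21.6, 36.7, 27.6, 26.3 and 29.7 CPM in WT and 14.6, 21.2, 23.9, 12.6 and 17.3 CPM in the double knockout (-0.66 ± 0.159, adjusted p = 0.00335, edgeR). The laminin chain Lama4 changed by -0.31 ± 0.109 (adjusted p = 0.0425, edgeR). Lama2, Nid1, Nid2 and Col4a5 gave -0.39 ± 0.197, -0.31 ± 0.144, -0.05 ± 0.247 and -0.58 ± 0.266 and did not pass.

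Of the 26 calls, 19 held when each WT or double-knockout library was left out in turn and under every other setting tried, and those of Fbn1, Bgn, Postn, Lama4, Col6a1, Dcn and Efemp1 did not. With males alone, 4 against 4, 21 members were called, and without double-knockout replicate 1 there were 24, with a median of -0.60. The 10.2% of all genes given above belongs to the main edgeR fit of all 30 libraries, not to these fits.

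**Figure D2:**
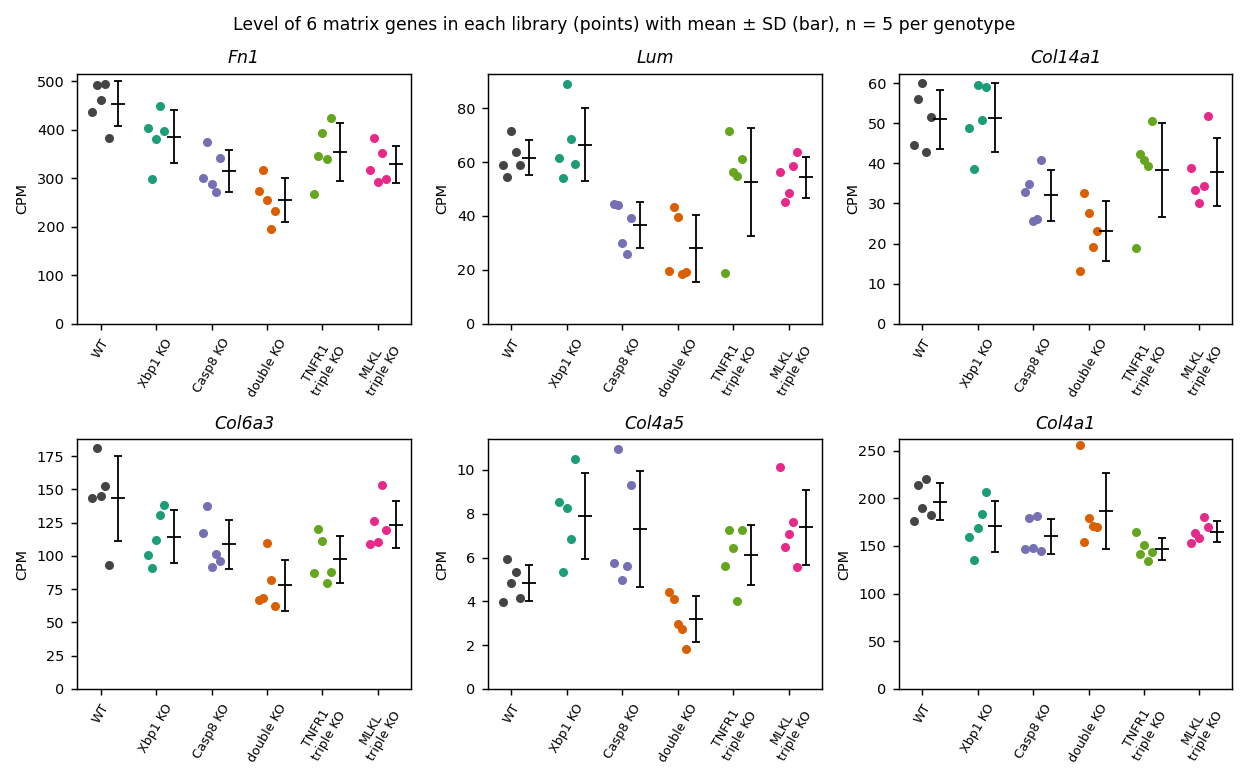
CPM (vertical axes) of Fn1, Lum, Col14a1, Col6a3, Col4a5 and Col4a1 in each of the 30 libraries, by genotype; each point is 1 mouse, and bars give the mean ± SD of 5 mice. Fn1, Lum and Col14a1 are lowest in the double knockout, Col4a5 is higher in both single knockouts than in the double knockout, and Col4a1 overlaps between WT and the double knockout.

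Markers of other cell types moved in the same comparison. All 17 of 17 smooth muscle markers fell, with a median log2 fold change of -1.0. Among them were Mylk, the kinase that triggers smooth muscle contraction (-1.41 ± 0.174), the intermediate filament Des (-1.53 ± 0.203), Cald1 (-1.02 ± 0.126) and Tpm1 (-0.99 ± 0.124). Their summed level ran from 13053 to 17746 CPM in WT and from 6240 to 9195 CPM in the double knockout. Of 24 fibroblast markers 3 fell (Ackr4 -1.13 ± 0.266, Cd34 -0.77 ± 0.215 and Prrx1 -0.96 ± 0.348, a call lost with males alone, under 4 other settings and in 5 of 10 fits that left out 1 library) and 1 rose, Ly6a (2.35 ± 0.5), which interferon also induces. All 24 fibroblast markers summed to 693 to 800 CPM in WT and to 925 to 1949 CPM in the double knockout. The 23 other than Ly6a, a set chosen after its values were seen, summed to 565 to 634 CPM in WT and to 498 to 566 CPM in the double knockout. The direction of the sum thus depends on Ly6a. Of the lymphocyte and plasma cell markers 5 of 8 rose, and their summed level went from 23.5 to 84.7 CPM in WT to 246.5 to 1014 CPM in the double knockout. Of the macrophage and neutrophil markers 9 of 12 rose, from 243 to 409 CPM in WT to 366 to 1078 CPM. Of the epithelial markers 8 of 13 rose and 1 fell. Pericyte markers fell in 3 of 5, enteric neuron and glia markers in 5 of 10, and endothelial markers rose in 1 and fell in 1 of 13. The mesothelial markers did not pass the filter. The part of each of these cell types in the fall of the matrix genes was not tested.

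**Figure D3:**
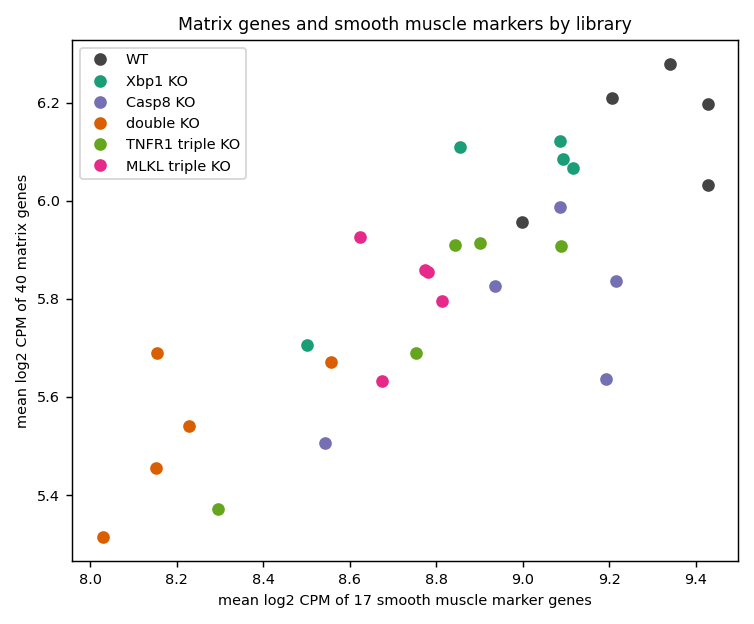
Mean log2 CPM of the 40 matrix members (vertical axis) against mean log2 CPM of 17 smooth muscle markers (horizontal axis), 1 point per library, coloured by genotype. WT libraries lie at 5.957 to 6.279 for the matrix genes and 8.998 to 9.429 for muscle, and double-knockout libraries at 5.315 to 5.690 and 8.029 to 8.557.

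Genes that process, bind or signal through the matrix changed in both directions between the double knockout and WT. Of 23 collagen processing and cross-linking genes tested 5 fell and 1 rose, with a median log2 fold change of -0.22. Pcolce and Pcolce2, which speed the cutting of procollagen, changed by -0.71 ± 0.153 and -1.36 ± 0.375, Loxl1, which cross-links elastin, by -0.66 ± 0.149, and P3h4, a partner of collagen-modifying hydroxylases, by -0.89 ± 0.23. The gene that rose was Lox, the main collagen cross-linking oxidase, at 1.22 ± 0.343 on the log2 scale (adjusted p = 0.011, edgeR), which is named because it was the only one and was picked after its values were seen. Lox read 8.80, 15.6, 9.89, 15.1 and 5.46 CPM in WT and 45.6, 8.69, 17.3, 16.8 and 39.0 CPM in the double knockout, so that replicates 1 and 5 stood highest and replicate 2 lay within WT. Of 25 matrix receptors 6 fell and 6 rose. The collagen receptor Ddr2 changed by -1.16 ± 0.139 and the laminin-binding integrin of muscle, Itga7, by -1.5 ± 0.213. Itga1, a collagen-binding integrin, changed by -0.75 ± 0.103 and Itga9 by -0.97 ± 0.137. Of 24 genes of the transforming growth factor beta pathway 4 fell and 3 rose: Tgfb2 changed by -0.81 ± 0.157 and Ltbp4, which stores the latent ligand in the matrix, by -0.66 ± 0.171, while Tgfb1 changed by 1.41 ± 0.335 and Smad4 by 0.36 ± 0.0935. Of 44 other matrix genes 13 fell and 3 rose. Col8a2 (-2.17 ± 0.34) and Aspn (-0.95 ± 0.171) fell, and Spon1 (1.0 ± 0.146) rose.

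In the Casp8 knockout 4 of the 40 members (10%) fell below WT, where 0.537% of all genes tested fell and 0.634% rose, and no member rose by edgeR's test. Of the 40, 39 had a negative log2 fold change, with a median of -0.35 against 0.00 over all genes tested, and 23 had an unadjusted p under 0.05, as did 15.6% of all genes tested. The 4 that fell were Dcn, Fn1, Prelp and Mfap4. Dcn read 799, 826, 862, 825 and 786 CPM in WT and 489, 497, 368, 353 and 612 CPM in the Casp8 knockout, a log2 fold change of -0.82 ± 0.178 (adjusted p = 0.0151, edgeR). It then read 660.4, 624, 452, 536 and 601 CPM in the double knockout, not below the Casp8 knockout. Fn1 read 299, 375, 287, 271 and 342 CPM in the Casp8 knockout (-0.53 ± 0.129, adjusted p = 0.0339, edgeR), all below WT. Prelp read 43.2, 43.2, 50, 25.4 and 43.3 CPM (-0.62 ± 0.158, adjusted p = 0.0444, edgeR), with replicate 4 apart from the rest. Mfap4 read 13, 12, 9.49, 7.38 and 10.4 CPM (-0.69 ± 0.18, adjusted p = 0.0497, edgeR). In 9 members every Casp8-knockout library lay below WT, which held for 2.53% of all genes tested; besides the 4 called these were Col6a2, Col14a1, Lum, Ogn and Dpt.

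No smooth muscle marker passed in the Casp8 knockout, but 15 of 17 were negative and 10 had an unadjusted p under 0.05. Their median log2 fold change was -0.31 and their sum ran from 9117 to 15044 CPM, against 13053 to 17746 CPM in WT, and 1 of 24 fibroblast markers fell. Their part in the result was not tested. The number of members called fell to 0 without Casp8-knockout replicate 4, to 1 without WT replicate 1, 2 or 4 or Casp8-knockout replicate 3, and to 2 without WT replicate 3 or 5 or Casp8-knockout replicate 1 or 5. It was 1 with a term for sex and 2 with the replicate number as a block.

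In the Xbp1 knockout no member changed against WT by edgeR's test, in which 0.0841% of all genes tested passed. At an unadjusted p under 0.05 there were 6 of 40 members, a share near that of all genes tested (2017 of 15458), and DESeq2 called 1. The median log2 fold change of the members was -0.10, with 10 positive and 30 negative. In 2 of the 40 members, Col5a3 and Sparcl1, every Xbp1-knockout library lay below WT. This share is not far from the 2.39% of all genes tested for which this held. Col5a3 read 8.53, 9.73, 14.5, 12.5 and 12.8 CPM in the Xbp1 knockout (-0.83 ± 0.234, adjusted p = 0.117, edgeR) and Sparcl1 779.9, 570.1, 761, 651 and 688 CPM (-0.57 ± 0.193, adjusted p = 0.182, edgeR). Of the abundant fibrillar collagens, Col1a1 gave 0.08 ± 0.167, Col3a1 -0.01 ± 0.167 and Col1a2 -0.17 ± 0.164, and none passed. The sum of the 40 members was 6124 ± 752 CPM (SD, n = 5), and its lowest library was the one labelled replicate 2. No smooth muscle marker passed, but 16 of 17 were negative and 12 had an unadjusted p under 0.05. Their median log2 fold change was -0.37. Their summed level ran from 9216 to 14077 CPM, against 13053 to 17746 CPM in WT, and their part in the result was not tested.

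**Figure D4:**
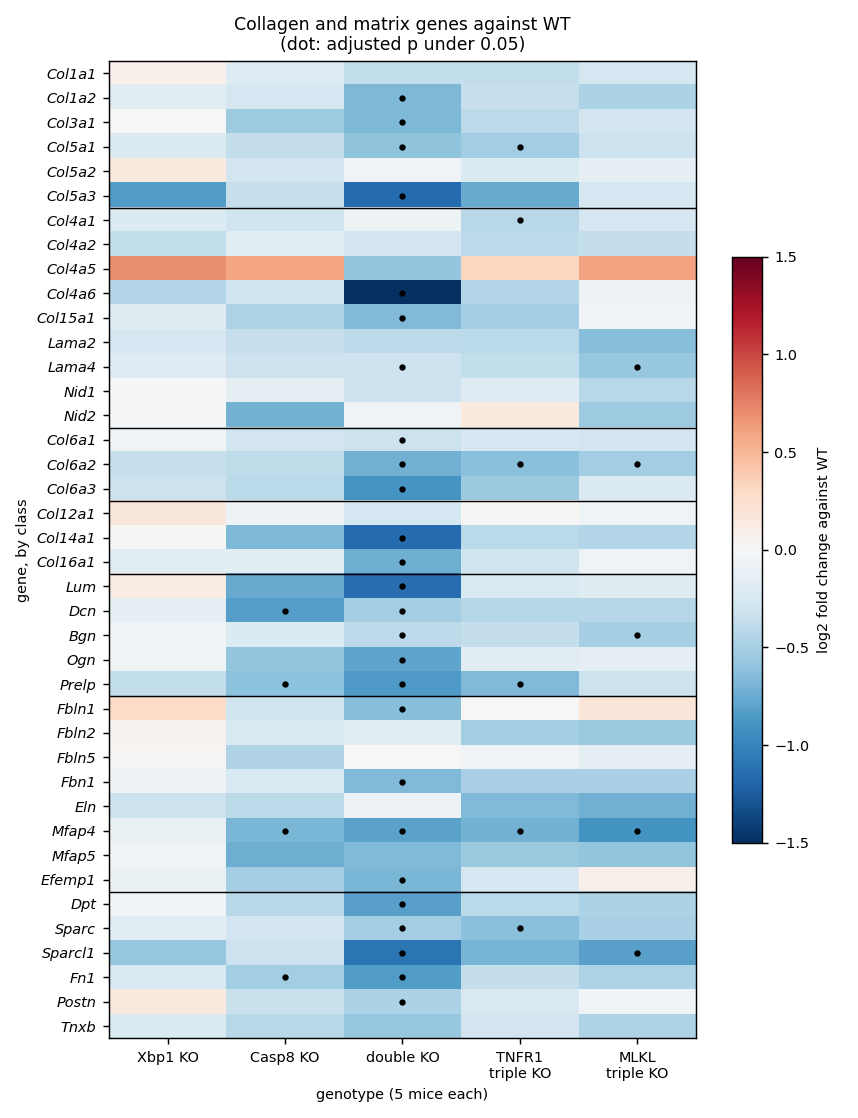
Heat map of the log2 fold change against WT of the 40 members (rows, grouped by role) in the 5 mutant genotypes (columns). The double-knockout column is negative in all 40 rows, the Casp8-knockout column in 39, and both triple-knockout columns in 37.

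Set against each single knockout, the double knockout was lower in 13 of 40 members relative to the Xbp1 knockout (32.5%, where 3.86% of all genes tested fell and 4.77% rose) and in 7 of 40 relative to the Casp8 knockout (17.5%, where 8.71% fell and 9.68% rose). No member rose in either comparison by edgeR's test. The medians were -0.46 and -0.19. Relative to the Xbp1 knockout the largest changes among the 13 were those of Col4a5 (-1.28 ± 0.254), Lum (-1.26 ± 0.246), Col14a1 (-1.16 ± 0.21) and Fbln1 (-0.92 ± 0.157); Col4a6 gave -1.07 ± 0.419 and did not pass. Fn1, Col16a1, Ogn, Dpt, Col3a1, Mfap4, Postn, Col6a3 and Col6a2 also fell, by 0.38 to 0.78. In the Xbp1 knockout Lum read 61.6, 54.2, 89.1, 68.5 and 59.2 CPM, and Fbln1 read 49.7, 57.7, 59.9, 58.4 and 71.5 CPM, each above every double-knockout library. Relative to the Casp8 knockout the members that fell were Col4a6 (-1.20 ± 0.421), Col4a5 (-1.17 ± 0.259), Col5a3 (-0.82 ± 0.242), Sparcl1 (-0.78 ± 0.194), Col16a1 (-0.56 ± 0.127), Col6a3 (-0.48 ± 0.164) and Col6a2 (-0.35 ± 0.117). Col16a1 read 55.6, 48.7, 55.5, 37.7 and 61.1 CPM in the Casp8 knockout, so that only replicate 4 came within the double-knockout range. Both comparisons use the same double-knockout libraries.

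Smooth muscle markers were lower in 14 of 17 relative to the Xbp1 knockout (median -0.66) and in 15 of 17 relative to the Casp8 knockout (median -0.68). Their summed level ran from 9216 to 14077 CPM in the Xbp1 knockout and from 9117 to 15044 CPM in the Casp8 knockout, against 6240 to 9195 CPM in the double knockout. Macrophage and neutrophil markers were higher in 7 and in 10 of 12. The part of these cells in the result was not tested. Under every setting and without any one library 9 of the 13 calls held, and those of Col6a2, Col6a3, Mfap4 and Postn did not. Of the 7 calls relative to the Casp8 knockout only Col4a5, Col16a1 and Sparcl1 held throughout; Col6a2 and Col6a3 were lost with a term for sex, and Col4a6 with the replicate number as a block and in 7 of 10 fits that left out 1 library. Leaving out 1 library gave 10 to 18 calls in the first comparison. Without the library labelled Xbp1 knockout replicate 2 the count was 18, and the second count was 4 without Casp8-knockout replicate 1 and 3 without Casp8-knockout replicate 2 or double-knockout replicate 5. Without double-knockout replicate 1 the counts were 15 and 5.

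The effect of losing caspase-8 differed with and without XBP1 for 1 of the 40 members, Col4a5. Of the 15458 genes tested, 103 (0.666%) had such a lower interaction and 110 a higher one. A count of 1 in 40 is near that share. Col4a5 encodes the collagen IV chain that pairs with the product of Col4a6 in smooth muscle basement membrane. It read 3.96, 5.93, 4.83, 5.36 and 4.16 CPM in WT. With XBP1 lost it read 8.53, 5.33, 8.29, 6.83 and 10.5 CPM, and with caspase-8 lost 5.76, 10.9, 4.98, 5.60 and 9.32 CPM. In the double knockout it read 4.41, 4.09, 2.99, 2.72 and 1.82 CPM. Above the highest WT library lay 4 libraries of the Xbp1 and 2 of the Casp8 knockout, with log2 fold changes of 0.70 ± 0.245 and 0.59 ± 0.25 that did not pass, while 3 double-knockout libraries lay below the lowest WT library. The interaction was -1.87 ± 0.356 on the log2 scale (adjusted p = 0.0128, edgeR), and it passed in every setting tried and without any one library. These values rest on few reads, 8 to 27 per double-knockout library and 16 to 46 per library in WT and the single knockouts. The gene is X-linked, and the single knockouts had more females than WT and the double knockout. The interaction also passed with a term for sex. Its neighbour Col4a6 gave no such call: without XBP1 it read 3.65, 2.55, 4.97, 9.89 and 5.26 CPM, and without caspase-8 6.91, 7.55, 5.93, 1.53 and 7.12 CPM.

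In the MLKL triple knockout 12 of the 40 members (30%) rose above the double knockout, where 3.44% of all genes tested rose and 4.21% fell, and no member fell by edgeR's test. The median log2 fold change of the members was 0.19, with 28 positive and 12 negative, against 0.01 over all genes tested. Of the 9 basement membrane genes 6 were negative (median -0.11), and the lowest member, an elastic fibre gene, gave -0.63. In 6 members every MLKL triple-knockout library lay above every double-knockout library, which held for 2.64% of all genes tested: Col4a5, Col4a6, Col16a1, Lum, Ogn and Fbln1. Col16a1 read 68.3, 51.4, 48.2, 59.1 and 51.2 CPM, a log2 fold change of 0.67 ± 0.126 over the double knockout (adjusted p = 0.00127, edgeR). Fbln1 read 69.8, 49.4, 43.6, 46.9 and 68.7 CPM (0.82 ± 0.157, adjusted p = 0.00137, edgeR). For both genes the triple-knockout values overlapped those of WT. Col4a5 read 10.1, 6.5, 7.06, 7.64 and 5.58 CPM (1.18 ± 0.256, adjusted p = 0.00433, edgeR), and Lum 56.3, 45.1, 48.5, 58.6 and 63.8 CPM (0.97 ± 0.247, adjusted p = 0.0136, edgeR). Ogn read 91.4, 89.6, 93.0, 91.2 and 93.7 CPM, all within the WT range (0.64 ± 0.168 over the double knockout, adjusted p = 0.0161, edgeR). The other members that rose were Col6a3 (0.67 ± 0.163), Col15a1 (0.62 ± 0.16), Col5a3 (0.91 ± 0.239), Efemp1 (0.76 ± 0.206), Col4a6 (1.42 ± 0.411), Col14a1 (0.71 ± 0.212) and Prelp (0.52 ± 0.159). Fn1, the member of smallest p in the double knockout, gave 0.37 ± 0.129 and missed the threshold (adjusted p = 0.0707, edgeR). Dcn (0.09 ± 0.176) and Col1a1 (0.10 ± 0.167) did not pass.

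**Figure D5:**
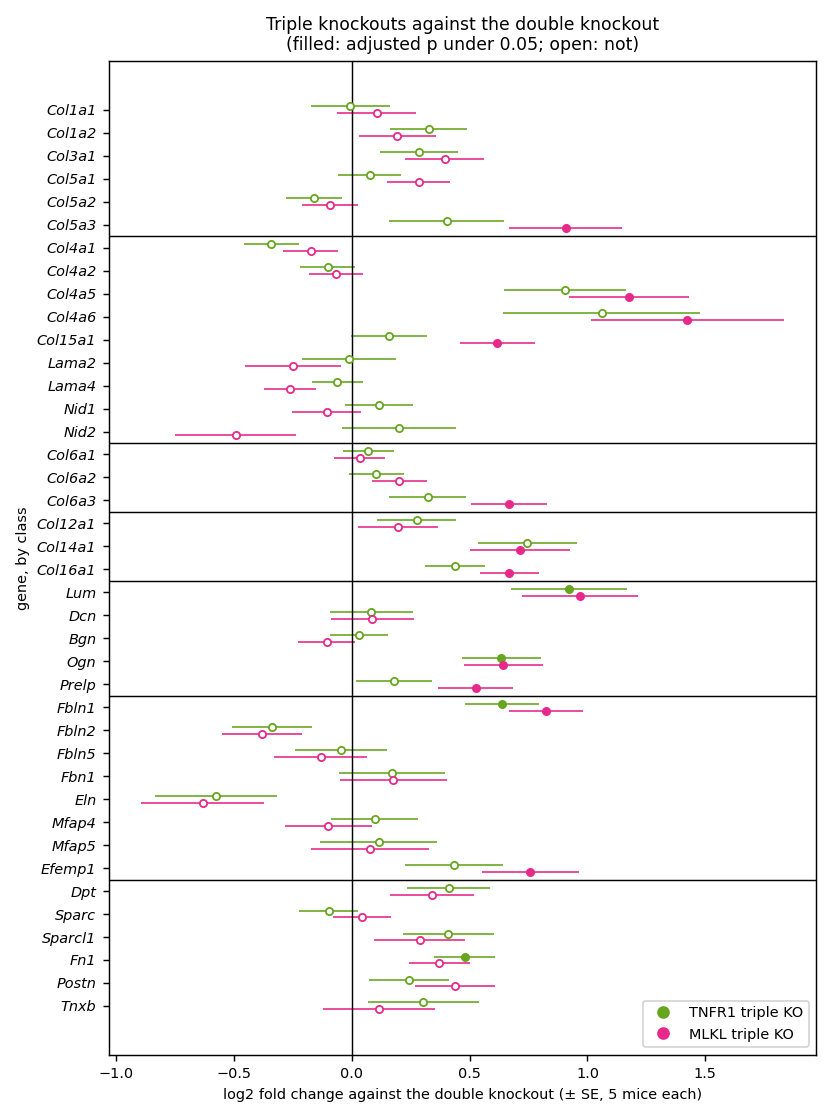
Log2 fold change ± SE of the 40 members in the TNFR1 and the MLKL triple knockouts, each against the same double-knockout libraries. Filled points passed the test, 4 in the TNFR1 and 12 in the MLKL triple knockout, and all of them lie above 0.

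In the same comparison 10 of 17 smooth muscle markers rose (median 0.47; summed level 9970 to 11297 CPM), 2 of 24 fibroblast markers rose, and 6 of 12 macrophage and neutrophil markers and 2 of 8 lymphocyte and plasma cell markers fell. Their part in the rise was not tested. All 5 mice of this group were female and 4 of 5 double-knockout mice male, so sex and genotype overlap in part; Col6a3, Col4a5, Col16a1, Lum and Fbln1 stayed called with a term for sex, under every other setting and without any one library, while Col15a1, Col5a3 and Col14a1 lost their calls with a term for sex. Lox, the oxidase higher in the double knockout than in WT, changed by -1.96 ± 0.362 here (adjusted p = 0.0011, edgeR). Without double-knockout replicate 4 or 5 there were 7 calls, without replicate 1 there were 9, and without the library labelled MLKL triple knockout replicate 5 there were 11.

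With epithelial TNFR1 also deleted, 4 of the 40 members (10%) rose above the double knockout, where 1.02% of all genes tested rose and 1.33% fell, and no member fell by edgeR's test. They were Fbln1, Ogn, Lum and Fn1. Fbln1 read 31.6, 51.6, 57.0, 54.0 and 49.5 CPM (0.64 ± 0.157, adjusted p = 0.0283, edgeR), and Ogn 58.9, 117, 96.5, 82.6 and 102 CPM (0.63 ± 0.168, adjusted p = 0.0397, edgeR). Lum read 19, 71.5, 56.4, 55.0 and 61.3 CPM (0.92 ± 0.246, adjusted p = 0.041, edgeR), and Fn1 267, 346, 394, 339 and 424 CPM (0.48 ± 0.129, adjusted p = 0.0421, edgeR). In each of the 4 genes replicate 1 was the lowest library and lay within the double-knockout range, while the other 4 lay above it. No member therefore had every TNFR1 triple-knockout library above the double knockout, which held for 1.05% of all genes tested. Col14a1 (0.74 ± 0.211), Col4a5 (0.90 ± 0.259) and Col16a1 (0.44 ± 0.126) narrowly missed the threshold, with adjusted p of 0.0531, 0.0553 and 0.0595 (edgeR). Of the 40 members 30 were positive and 10 negative, with a median log2 fold change of 0.17. Among the negative ones, Col4a1 gave -0.34 ± 0.115 (adjusted p = 0.104, edgeR), and the lowest, an elastic fibre gene, gave -0.58.

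The count of 4 moved to 8 without TNFR1 triple-knockout replicate 1 and to 7 without double-knockout replicate 2, and to 0 without double-knockout replicate 1, 4 or 5 or without any one of TNFR1 triple-knockout replicates 2 to 5. It was 0 in a fit of these groups alone and 7 with DESeq2. The sexes were nearly reversed between these groups: with a term for sex Lum and Fbln1 lost their calls, and with the replicate number as a block Fn1 lost its call. Smooth muscle markers rose in 9 of 17 (median 0.57; summed level 7713 to 14093 CPM), 1 of 24 fibroblast markers rose, and 2 of 12 macrophage and neutrophil markers and 1 of 8 lymphocyte and plasma cell markers fell; their part in the result was not tested. Both triple knockouts were compared with the same double-knockout libraries, and whether they differed from each other was not tested.

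Against WT, both triple knockouts stayed lower in part of the matrix genes. The TNFR1 triple knockout was lower in 6 of 40 (15%), where 0.957% of all genes tested fell and 1.16% rose, with a median of -0.39. These were Col6a2 (-0.62 ± 0.116), Sparc (-0.62 ± 0.125), Prelp (-0.67 ± 0.158), Mfap4 (-0.71 ± 0.178), Col5a1 (-0.53 ± 0.133) and Col4a1 (-0.42 ± 0.116), of which Col6a2 and Sparc stayed called under every setting and without any one library. Col6a2 read 62.0, 81.2, 83.0, 71.8 and 87.6 CPM and Sparc 382, 374, 467, 334 and 426 CPM, all below WT. The basement membrane chain Col4a1 read 165, 141, 151, 135 and 143 CPM, also below every WT library, though it had not passed in the double knockout. The MLKL triple knockout was lower than WT in 5 of 40 (12.5%), where 0.511% of all genes tested fell and 0.343% rose, with a median of -0.34. These were Lama4 (-0.57 ± 0.11), Mfap4 (-0.90 ± 0.181), Col6a2 (-0.53 ± 0.116), Sparcl1 (-0.81 ± 0.194) and Bgn (-0.50 ± 0.122). Mfap4 read 9.35, 8.66, 9.01, 8.98 and 8.98 CPM in this group, and Sparcl1 543, 562, 411, 634 and 772 CPM, below every WT library. No member rose above WT in either triple knockout by edgeR's test. All 17 smooth muscle markers were negative in both, with 4 lower in the TNFR1 triple knockout (median -0.48) and 5 lower in the MLKL triple knockout (median -0.55). Their summed level ran from 7713 to 14093 CPM and from 9970 to 11297 CPM, against 13053 to 17746 CPM in WT, and their part in the result was not tested.

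Every library of the TNFR1 triple knockout lay below every WT library in 9 members, against 2.43% of all genes tested, and every library of the MLKL triple knockout in 8, against 2.50%. The summed level of the 40 members was 5079 ± 703 CPM with TNFR1 and 5144 ± 541 CPM with MLKL also deleted (SD, n = 5 each). Both means lay between those of the double knockout and WT, near the 5244 ± 549 CPM of the Casp8 knockout. Libraries ran from 4039 to 5844 CPM and from 4473 to 5889 CPM. Both ranges overlapped that of the double knockout (3649 to 5044 CPM) and lay below that of WT (5936 to 7514 CPM). With a term for sex the counts fell to 2 in the TNFR1 and to 0 in the MLKL triple knockout. The first count was 2 without WT replicate 1 or TNFR1 triple-knockout replicate 1 or 4 and 3 without WT replicate 2. The second was 0 without MLKL triple-knockout replicate 3, 1 without WT replicate 2, 2 without WT replicate 4 or 5 or MLKL triple-knockout replicate 2, and 3 without MLKL triple-knockout replicate 1 or 4; without the library labelled replicate 5 it was 5.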

How the data were processed

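The authors deposited estimated counts for each Ensembl gene in 30 whole-colon libraries, made with a 3′ tag kit from 2 µg of total RNA with an integrity number above 7, per the labels' protocols. The authors ran cutadapt 3.2, Subread and featureCounts 2.01 against GRCm38 (mm10), with R 4.0.0, per the submitters' processing notes. How strand and shared reads were counted is not given in the sources used here, so overlapping and antisense genes cannot be told apart. Fractional values made up 11.2% of those above 0; counts were rounded, which moved no library total by more than 0.00321%. Gene names came from GENCODE, matching 55227 of 55487 IDs; the other 260 held 0.0190% of reads. All 92 spike-in features held 0 reads.

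edgeR 4.0.16 (R 4.3.3) was run on all 6 groups together with TMM scaling, filterByExpr (15458 genes kept, 27.9%), a quasi-likelihood F test and Benjamini-Hochberg adjustment over all genes tested, with a threshold of 0.05; it was tested on simulated data first. Standard errors are the log2 fold change divided by the root of F. Alternatives were DESeq2 1.42.0, its size factors, no low-count filter, only the groups compared, a term for sex, the replicate number as a block and leaving out each library; males only, and leaving out each library that went against its label, were added after seeing the data. Per-library values are given for up to 2 members per class of smallest p against WT and up to 6 that passed in a triple knockout or the interaction, and other members by fold change; levels of Dcn, Col3a1, Col4a1, Sparc and Lox were added after their values were seen. The members and lists were chosen with earlier results of these data known. The labels give each mouse its own sample but no litter or day. Within groups, the closest pair of libraries differed by 3.25 times the counting variance, so none was the same library sequenced again. Separate libraries of the same mouse could also differ by more than this variance and would not be found this way. Depth of 3516792.6 to 5823059.7 reads leaves genes at a few CPM on few reads.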

Additional observations from a re-analysis of the deposited data

Results flagged for a closer look

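Among 102 groups of 5 libraries tested for one library far from the rest (16 named members and the mean of the 40 members, in each of the 6 genotypes), 3 had one; chance alone marks about 1 in 20 groups. Prelp in Casp8-knockout replicate 4 read 25.4 CPM, against 43.2 to 50 CPM in the other 4 libraries. Col4a6 in the same library read 1.53 CPM, against 5.93 to 7.55 CPM in the others. The mean log2 CPM of the 40 members was 5.71 in the library labelled Xbp1 knockout replicate 2, against 6.07 to 6.12 in the others of that group; this is the library whose Casp8 level went against its label.

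Col4a5 was singled out because the effect of caspase-8 loss differed with and without XBP1, by -1.87 on the log2 scale (adjusted p = 0.0128, edgeR's quasi-likelihood test of the interaction).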

How the results depend on the processing

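No log2 fold change of a named member that passed the test changed sign in any alternative. The shares of all genes given beside the counts above belong to the main edgeR fit, not to the alternatives. Counts of members called moved by more than 1.5 times as follows, and the cause was not tested. When only the groups compared were fitted, the counts were 2 for the Xbp1 knockout against WT (0 with all groups), 8 for the Casp8 knockout against WT (4), 3 for the double against the Casp8 knockout (7), 0 for the TNFR1 triple against the double knockout (4) and 7 for the MLKL triple against the double knockout (12). DESeq2 gave 1, 7 and 11 for the Xbp1 knockout against WT (0), the TNFR1 triple against the double knockout (4) and the TNFR1 triple knockout against WT (6). A term for sex gave 1 for the Casp8 knockout (4), 2 for the TNFR1 triple (6) and 0 for the MLKL triple knockout (5), each against WT. With the replicate number as a block, the Casp8 knockout against WT had 2 calls (4), and the double knockout against WT kept its count of 26. Same-numbered libraries of different groups did not deviate together (mean r -0.000270 over 75 pairs, from -0.270 to 0.278). No pairing of the mice by number was thus seen, though a weak or partial one could be missed by this mean.

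Leaving out 1 library at a time gave 0 calls throughout for the Xbp1 knockout, 0 to 3 for the Casp8 knockout, 20 to 27 for the double, 2 to 9 for the TNFR1 triple and 0 to 5 for the MLKL triple knockout, each against WT. It gave 10 to 18 for the double against the Xbp1 knockout, 3 to 8 against the Casp8 knockout, 1 for the interaction, and 0 to 8 and 7 to 14 for the TNFR1 and MLKL triples against the double knockout. Over all genes, the interaction had 213 calls, 73 with the block, 55 with the sex term, 107 with only the groups compared and 475 with DESeq2. The TNFR1 triple against the double knockout had 363 over all genes and 21 with only those groups, and the MLKL triple knockout against WT had 132 and 11 with the sex term. Medians over the members moved by less than the spread between libraries (SD 0.172) in every setting. Col4a5 and Col4a6 rest on the fewest reads of the genes that turned out lower or higher, and depth limits them most.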
